A study of Mus musculus with 2 samples.

Results

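The cells described here are thymic macrophages marked by the complement component C1q. They were chosen by counts of unique molecular identifiers (UMIs, each standing for 1 captured mRNA molecule): at least 10 UMIs of C1qa, C1qb and C1qc together. At most 1 UMI was allowed of each exclusion group: Xcr1 with Clec9a for type 1 dendritic cells, Ccr7 with Fscn1 for activated dendritic cells, Siglech for plasmacytoid dendritic cells, Cd3d with Cd3e and Cd3g for T cells, and Cd79a with Ms4a1 for B cells. Of 19019 cells with a single genotype hashtag, 724 met the rule. They were 442 of 11586 WT cells, a share of 3.81% with an exact binomial 95% interval of 3.47% to 4.18%, and 282 of 7433 Mgl2DTR cells, a share of 3.79% with an interval of 3.37% to 4.25%. At 50 or more C1q UMIs the shares were 2.66% and 1.84%. The exclusions removed 235 of the 677 WT cells with enough C1q and 84 of the 366 Mgl2DTR cells.

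The study sorted CD11c- and CD11b-stained live cells from the collagenase D-digested thymus of mice aged 7 weeks, after magnetic depletion of CD90.2-expressing thymocytes. One group was B6WT, wild type. The other was Mgl2DTR_eGFP, in which Mgl2, the gene of the lectin CD301b, drives a receptor for diphtheria toxin together with green fluorescent protein, and which received 500 ng of diphtheria toxin for 48 h. The labels do not state whether the WT mice were given toxin, and they name no animals. Both genotypes ran through 1 droplet pool, so each genotype is 1 sample, told apart by an oligonucleotide tag, and no difference between them has a replicate check. Toxin and genotype cannot be told apart in this design. The pair of tags that assign the cells were read 5′ to 3′ as follows, all in lower case because no part of either carries a motif.

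B6WT tag: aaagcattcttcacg
Mgl2DTR tag: ctttgtctttgtgag

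C1qa, C1qb and C1qc encode the chains of C1q, the recognition molecule of the classical complement pathway, which macrophages make themselves and which binds dying cells. Thymic macrophages are known above all for engulfing the thymocytes that die during selection. Timd4, a receptor for the phosphatidylserine exposed on dying cells, marks long-lived resident macrophages of several tissues, and Spic, a transcription factor, is required for the iron-recycling macrophages of the spleen.

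The macrophages held 4415535 UMIs in WT and 2824121 in Mgl2DTR, with a median of 9394 and 8422 UMIs per cell. Median genes per cell were 2649 and 2544, and the median mitochondrial share of UMIs was 2.06% and 1.70%. Levels are given as CPM, the UMIs of a gene summed over the cells of a group, per 1000000 UMIs of those cells. Each level has an exact Poisson 95% interval where printed. All intervals cover counting error only, since cells of 1 sample are not replicates. Droplets also catch free RNA from other cells. Levels are therefore set beside those in 2268 WT and 570 Mgl2DTR T cells that held at least 3 Cd3 UMIs and no C1q. The median depths of these T cells were 4359 and 3977 UMIs. Their level is called the background below. It can also hold RNA made by the T cells or by cells sharing their droplets, so it is no measure of free RNA alone.

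The label of macrophage was borne out by genes that took no part in the choice. Apoe, a lipoprotein that carries cholesterol out of cells, stood at 10479 CPM (10383 to 10575) in the WT macrophages and at 6130 CPM (6039 to 6222) in those of Mgl2DTR. The T cells held 99.6 and 123 CPM of it. The phosphatidylserine-sensing receptor kinase Axl stood at 411 CPM (392 to 430) and 295 CPM (275 to 315), against 9.74 and 9.01 CPM in T cells. Ms4a7, a membrane protein of mature macrophages, stood at 454 CPM (434 to 474) and 240 CPM (223 to 259), against 2.41 and 1.75 CPM. All 3 genes were therefore far above the background in both genotypes.

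Other macrophage genes followed the same order. The engulfment receptor Mertk stood at 77.0 CPM in WT against 68.7 CPM in Mgl2DTR macrophages and at 0.115 and 0.872 CPM in T cells. The growth factor receptor Csf1r stood at 490 and 369 CPM in the macrophages. Adgre1, the gene of the F4/80 antigen, stood at 128 and 101 CPM. Against these, the dendritic cell genes Flt3 (5.89 and 4.60 CPM) and Zbtb46 (7.47 and 3.54 CPM) lay below their T cell levels of 60.6 and 35.8 CPM and of 21.4 and 11.3 CPM.

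The macrophages also held monocyte transcripts. Ly6c2, a surface protein of inflammatory monocytes, stood at 406 CPM in WT against 371 CPM in Mgl2DTR macrophages, above the 146 and 307 CPM of the T cells. Monocyte-like cells are cells with at least 3 Ly6c2 UMIs, a Csf1r UMI and no more than 3 C1q UMIs. There were 190 of them in WT and 350 in Mgl2DTR, and they held 1606 and 1451 CPM of Ly6c2 and only 12.3 and 13.3 CPM of C1qa. At least 3 Ly6c2 UMIs were present in 92 of the 442 WT macrophages (20.8%) and in 68 of the 282 Mgl2DTR macrophages (24.1%).

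**Figure D1:**
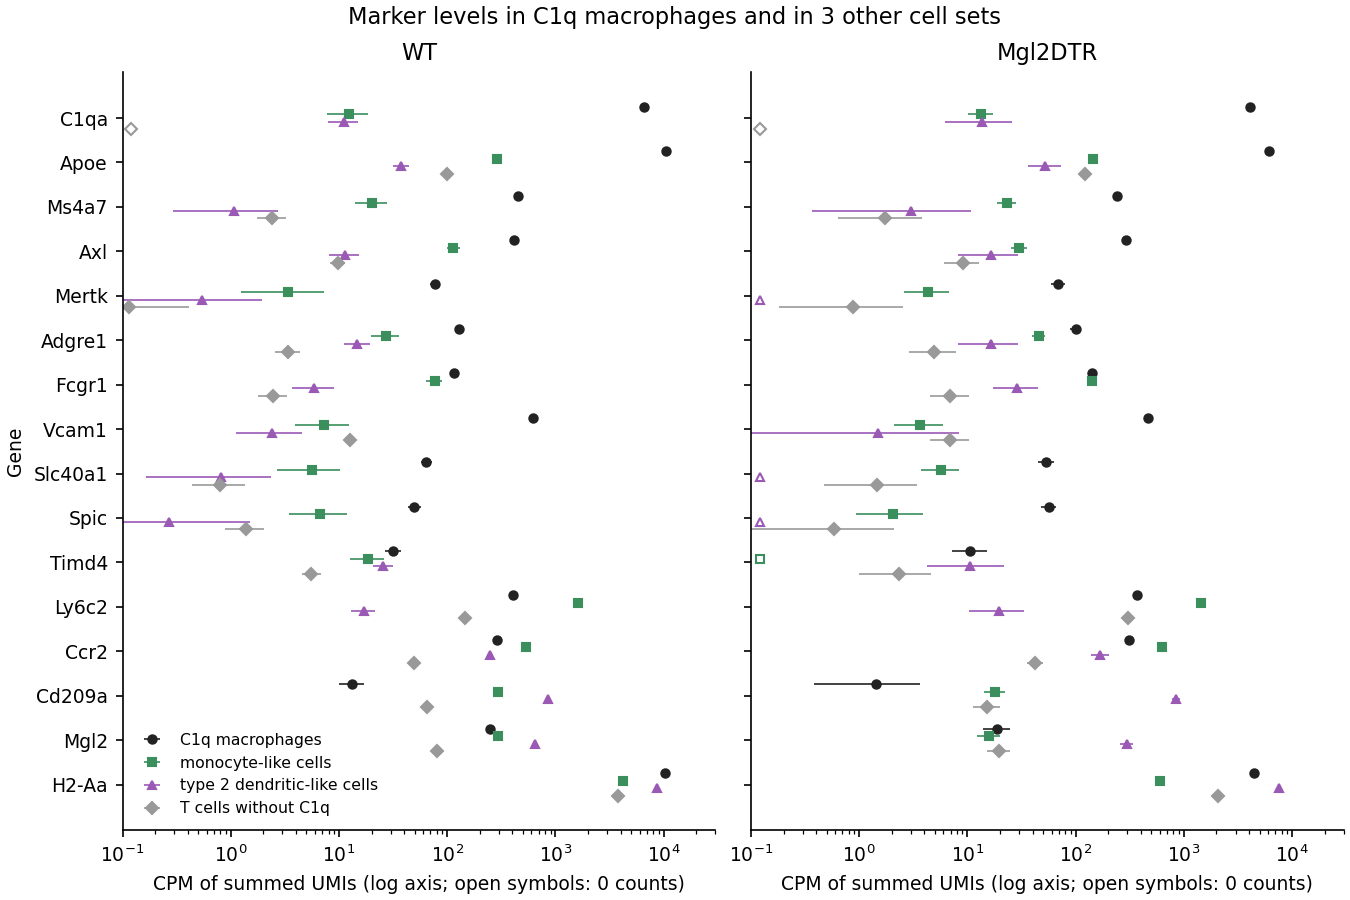
Levels of marker genes in the C1q macrophages and in 3 other cell sets, in CPM on a log axis with exact 95% Poisson intervals, for WT (left) and Mgl2DTR (right); open symbols mark 0 counts. Apoe, Ms4a7, Axl and Mertk lie highest in the macrophages of both genotypes, and Ly6c2 lies highest in the monocyte-like cells.

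The amount of C1q per cell, which chose the cells and is therefore only described, was spread widely and was lower in Mgl2DTR. C1qa stood at 6549 CPM in WT against 4041 CPM in Mgl2DTR macrophages, C1qb at 5441 and 3502 CPM, and C1qc at 3573 and 2137 CPM. The median macrophage held 100.5 C1q UMIs in WT, with quartiles of 36.25 and 244.8, and 47.5 in Mgl2DTR, with quartiles of 22 and 135.8. The richest cells held 688 and 580. Cells with 200 or more C1q UMIs made up 33.5% of the WT macrophages (148 cells) and 14.9% of the Mgl2DTR macrophages (42 cells). Those with 10 to 19 made up 11.1% (49 cells) and 20.6% (58 cells). The 3 genes lie side by side on chromosome 4 of GRCm38 (mm10), all on the minus strand: C1qb at 136880129 to 136886187, C1qc at 136889804 to 136893065 and C1qa at 136895917 to 136898803.

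Cells near the threshold looked different in the genotypes. Just inside it, with 10 to 12 C1q UMIs, were 19 WT and 17 Mgl2DTR cells. Just outside, with 7 to 9, were 22 WT and 31 Mgl2DTR cells. In WT, Apoe stood at 3480 CPM inside and 3259 CPM outside, and Ms4a7 at 229 and 326 CPM. In Mgl2DTR, Apoe stood at 1483 CPM inside and 470 CPM outside, and Ms4a7 at 72.0 and 4.57 CPM.

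Apoe followed the amount of C1q in both genotypes. Over the ranges of 10 to 19, 20 to 49, 50 to 99, 100 to below 200, and 200 or more C1q UMIs it stood at 4377, 5266, 8396, 10773 and 12179 CPM in WT. In Mgl2DTR it stood at 1411, 2818, 4882, 6772 and 10754 CPM. Each Mgl2DTR value was the lower of its pair, by ratios from 0.322 in the lowest range to 0.883 in the highest. Total UMIs per cell moved with these ranges too, from a median of 1771 to 15032 in WT and of 2584 to 17780 in Mgl2DTR, and the part of depth in these levels was not tested.

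**Figure D2:**
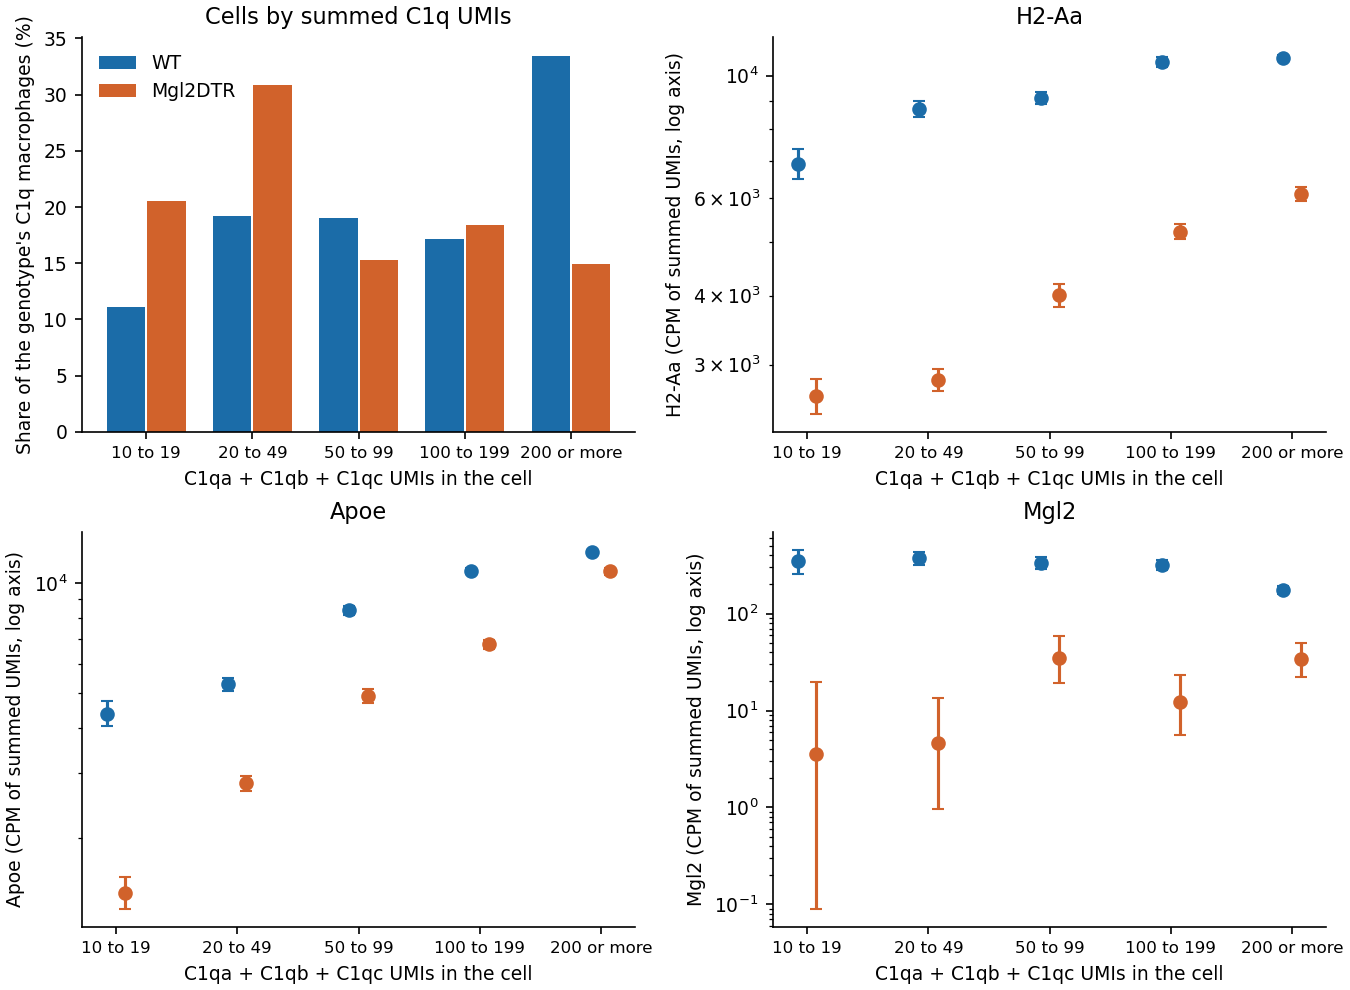
Share of each genotype's C1q macrophages (percent) in 5 ranges of C1q UMIs per cell, and the CPM of H2-Aa, Apoe and Mgl2 in those ranges on log axes with exact 95% Poisson intervals. WT macrophages are most frequent in the range of 200 or more (33.5%), Mgl2DTR macrophages in that of 20 to 49, and all 3 genes lie lower in Mgl2DTR in all 5 ranges.

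A UMI of Timd4 or Spic was found in 133 WT macrophages, 30.1% with an exact binomial interval of 25.9% to 34.6%, and in 71 Mgl2DTR macrophages, 25.2% with an interval of 20.2% to 30.7%. The intervals overlap. Timd4 was seen in 55 WT cells (12.4%, 9.51% to 15.9%) and 21 Mgl2DTR cells (7.45%, 4.67% to 11.2%), and its level was 31.5 and 10.6 CPM. Spic was seen in 103 (23.3%) and 66 cells (23.4%), at 49.6 and 56.6 CPM. The Timd4 level was thus lower in Mgl2DTR at a ratio of 0.337 (0.220 to 0.504), while the interval of the Spic ratio, 0.926 to 1.41, spanned 1.

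The background share of T cells with a Timd4 or Spic UMI was 2.20% in WT and 1.05% in Mgl2DTR. Thinned to 2000 UMIs per cell, which left out 43 WT and 33 Mgl2DTR macrophages that were shallower, the macrophage shares were 15.5% (12.1% to 19.5%) and 13.2% (9.30% to 18.1%). The T cell shares were then 0.518% and 0.192%. Both UMIs occurred in the same cell in 25 WT (5.66%) and 16 Mgl2DTR macrophages (5.67%). Timd4 was not limited to these macrophages: WT type 2 dendritic-like cells held 25.5 CPM and WT monocyte-like cells 18.5 CPM of it. Nor was its lower level in Mgl2DTR. There the type 2 dendritic-like cells held 10.5 CPM, a ratio of 0.412, and the monocyte-like cells 0 CPM. T cells held 5.56 CPM in WT and 2.33 CPM in Mgl2DTR, a ratio of 0.419. Timd4 lies on chromosome 11 (46810800 to 46844332, plus strand) and Spic on chromosome 10 (88674772 to 88685015, minus strand).

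The first comparison asked how the C1q macrophages of toxin-treated Mgl2DTR mice differed from those of WT mice. Mgl2DTR macrophages held less mRNA of genes of antigen presentation on major histocompatibility complex (MHC) class II, of the complement components C3, Cfb, C4b and C2, and of Retnla and Mgl2. They held more of Arg1, Fn1, the chemokines Ccl2, Ccl6 and Ccl24 and other genes of wound repair. Of 8355 genes with at least 50 counts, 717 (8.58%) were higher in Mgl2DTR and 418 (5.0%) were lower. A gene was called when its ratio reached 1.5-fold in either direction and the whole exact 95% interval lay on that side of 1; with 1 sample per genotype this is a rule of size and no test. The median gene stood at a log2 ratio of 0.09. Of the genes called, 63.2% were higher, and 47.5% were higher (514 against 569 lower) when the median ratio of genes with at least 200 counts was set to 1. C1q genes and Timd4 or Spic chose the cells or their subsets, and nothing is read from their calls.

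MHC class II molecules display peptides to CD4 T cells. The 3 chains measured were all lower. H2-Aa stood at 10193 CPM (10099 to 10287) in WT against 4474 CPM (4397 to 4553) in Mgl2DTR macrophages, a ratio of 0.439 (0.430 to 0.448). H2-Ab1 stood at 9920 and 4518 CPM, a ratio of 0.455, and H2-Eb1 at 8842 and 3774 CPM, a ratio of 0.427. Cd74, the invariant chain that guards the class II groove, stood at 25404 and 11576 CPM, a ratio of 0.456. Ciita, the master activator of these genes, stood at 110 and 69.4 CPM, a ratio of 0.628 (0.529 to 0.743). The smallest ratio on the list was that of H2-Oa, a chain of the peptide-editing modulator H2-O, at 19.02 and 5.31 CPM and a ratio of 0.279 (0.150 to 0.487). T cells held 66.96 and 47.4 CPM of H2-Oa, so that the macrophages of both genotypes lay below the T cell level.

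Of the 16 class II presentation genes measured, 12 were lower and none higher; their median log2 ratio was -0.68 against 0.09 over all genes tested. The peptide exchange chains H2-DMa (ratio 0.644) and H2-DMb2 (0.543), the protease Ctss (0.637), the thiol reductase Ifi30 (0.660), the cystatin Cst3 (0.579) and the costimulatory receptor Cd40 (0.619) were among them. H2-DMb1 (0.763), H2-Ob (0.782), Cd86 (0.867) and Cd80 (1.39) were not called. The count of lower genes was 6 when cells were thinned to 2000 UMIs, 7 without the deepest 10% of cells and 8 in cells with 50 or more C1q UMIs or with each cell weighted equally. It was 3 when the 391 WT (88.5%) and 234 Mgl2DTR macrophages (83.0%) with over 2 UMIs of other types' markers were left out. Those markers came from the lists of neutrophils, T cells, B cells, NK and innate lymphoid cells, and plasmacytoid dendritic cells. The lists of monocytes and of other dendritic cells were not used. Over all genes 42 were then higher and 45 lower. The part of fewer cells and counts in such falls was not tested.

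Class II mRNA was also lower in the cells around the macrophages. H2-Aa stood at 3790 CPM in WT against 2047 CPM in Mgl2DTR T cells, a ratio of 0.540, and at 4219 and 604 CPM in monocyte-like cells, a ratio of 0.143. In type 2 dendritic-like cells, those with at least 3 Cd209a or Cd209d UMIs and little Ly6c2 or C1q (342 in WT and 60 in Mgl2DTR), it stood at 8744 and 7581 CPM, a ratio of 0.867. The part of free class II RNA in the macrophage result was not tested. H2-Aa was lower in every range of C1q: the ratio of H2-Aa was 0.380, 0.323, 0.439, 0.493 and 0.566 from the lowest range to the highest.

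Class II promoters are known for a conserved module that ends in a Y box, the site of the factor NF-Y. RefSeq's promoter table, which is in build GRCm38.p6, held 7 of the 8 class II genes searched. CTGATTGG was sought in either orientation in each 300-base window, and 3 of the 7 held it: H2-Aa, H2-Eb1 and H2-Oa. The motif was held by 3.80% of all 32536 promoters listed. The stretches before the starts of H2-Aa and H2-Eb1, chains of abundant class II molecules, are shown because they carry this motif, in capitals. That of H2-Aa is chr17:34287824-34288073 on the minus strand, with the motif 51 bases before the start. That of H2-Eb1 is chr17:34305617-34305866 on the plus strand, with the motif 62 bases before it.

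H2-Aa promoter: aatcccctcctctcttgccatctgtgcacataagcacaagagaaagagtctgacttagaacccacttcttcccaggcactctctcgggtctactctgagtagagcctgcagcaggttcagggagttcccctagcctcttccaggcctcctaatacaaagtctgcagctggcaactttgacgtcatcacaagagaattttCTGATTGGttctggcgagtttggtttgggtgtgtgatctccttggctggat
H2-Eb1 promoter: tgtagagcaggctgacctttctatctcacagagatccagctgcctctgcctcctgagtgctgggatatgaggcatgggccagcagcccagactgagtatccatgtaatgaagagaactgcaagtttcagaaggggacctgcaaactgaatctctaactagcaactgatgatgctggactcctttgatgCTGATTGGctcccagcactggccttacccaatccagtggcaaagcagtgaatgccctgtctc

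A match is only a description of these letters. H2-Ob and H2-DMb1, which were not called, held no such motif in their windows, and neither did H2-DMa and H2-DMb2, which were lower.

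Among the genes called with at least 200 counts, the smallest ratios were those of Retnla and Mgl2, both linked to alternative activation. Retnla, a secreted protein that interleukin-4 and interleukin-13 induce through STAT6, was counted 3166 times in 38 WT macrophages and 9 times in 8 Mgl2DTR macrophages. Its level was 717 CPM in WT against 3.19 CPM in Mgl2DTR, a ratio of 0.00444 (0.00203 to 0.00845). The T cell levels were 13.1 and 8.14 CPM, so that the Mgl2DTR macrophages lay no higher than the background. In WT it was concentrated in few cells: 17 of the 38 held Timd4 or Spic and 24 also held Mgl2. WT cells with 200 or more C1q UMIs had almost none, 11.3 CPM, against 2158 CPM in those with 10 to 19.

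The Retnla promoter is shown because 1 of the letter patterns to which STAT6 binds, TTC and GAA with 4 bases between them, lies in it, in capitals, 145 bases before the RefSeq start. The printed stretch is chr16:48842359-48842550 on the plus strand. It stops short of that start, so the distance cannot be counted in its letters. The pattern, which reads the same on both strands, was held by 5.89% of all promoters in the table.

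Retnla promoter: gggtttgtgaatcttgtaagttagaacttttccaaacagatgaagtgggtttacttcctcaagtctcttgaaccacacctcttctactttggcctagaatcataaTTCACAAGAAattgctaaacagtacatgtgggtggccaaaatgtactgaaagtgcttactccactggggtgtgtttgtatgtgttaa

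Mgl2, the gene that drives the toxin receptor (chromosome 11, 70130329 to 70137550, plus strand), stood at 250 CPM (235 to 265) in 180 WT macrophages and 18.8 CPM (14.1 to 24.6) in 22 Mgl2DTR macrophages, a ratio of 0.0752 (0.0560 to 0.0991). T cells held 80.7 and 19.5 CPM, so the Mgl2DTR level was that of the background. The monocyte-like cells had a ratio of 0.0539. Among WT macrophages Mgl2 was spread over the C1q ranges, at 346, 374, 330, 320 and 176 CPM from the lowest to the highest, and stood at 281 CPM in cells with Timd4 or Spic and 237 CPM in cells without.

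Of 24 measured response genes of interleukin-4 and interleukin-13, 6 were higher and 8 lower, and the median log2 ratio was 0.07. The lower ones besides Retnla and Ccl17 included Clec10a, a galactose lectin beside Mgl2 (38.5 and 18.4 CPM), Cd209d (10.9 and 3.90 CPM), Ear2, a secreted ribonuclease (77.0 and 29.0 CPM), and Pdcd1lg2, the ligand PD-L2 (20.4 and 7.08 CPM). Clec10a and Cd209d lay below their T cell levels of 40.5 and 142 CPM already in WT, and Pdcd1lg2 stood at 16.0 CPM in WT T cells. The higher ones were Arg1, Chil3, Ccl24, Il4ra, Cish and Tgm2. Chil3, a chitinase-like protein, stood at 33.7 and 99.5 CPM, below its T cell levels of 41.5 and 109 CPM, and 1 cell held 77.9% of its UMIs in WT. The eosinophil-attracting chemokine Ccl24 stood at 109 CPM in WT against 738 CPM in Mgl2DTR, a ratio of 6.74 (6.10 to 7.46), against 3.67 and 3.49 CPM in T cells. The list therefore split, with Retnla and Arg1, both known targets of the same cytokines, at its opposite ends.

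Arg1, the enzyme that breaks down arginine, was counted 29 times in 8 WT macrophages and 902 times in 30 Mgl2DTR macrophages. Its level was 6.57 CPM in WT against 319 CPM in Mgl2DTR, a ratio of 48.6 (33.6 to 73.0), and T cells held 0.687 and 0.291 CPM. Fn1, the matrix protein fibronectin, was found in 3 WT and 46 Mgl2DTR macrophages, at 4.98 and 200 CPM, a ratio of 40.2 (26.3 to 64.7). Its T cell levels were 5.44 and 13.7 CPM. Both genes sat in cells poor in C1q. In Mgl2DTR, Arg1 stood at 1073, 829, 150, 1.36 and 1.32 CPM over the rising C1q ranges, and Fn1 at 643, 362, 222, 81.5 and 1.32 CPM. Of the 30 cells with Arg1, 24 also held Fn1, 14 held Ly6c2 and 1 held Timd4 or Spic.

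Of 30 measured genes of wound repair and the monocyte-derived state, 16 were higher and none lower, and the median log2 ratio was 0.74. They included Thbs1, the matrix glycoprotein thrombospondin (4.08 and 39.3 CPM), Spp1, the secreted phosphoprotein osteopontin (11.6 and 60.6 CPM), and the membrane proteins Ifitm1 (6.12 and 253 CPM) and Ifitm6 (11.6 and 85.0 CPM). Ifitm1 reached a ratio of 41.5 (28.3 to 63.4). It was also higher in T cells, at 8.59 and 73.0 CPM, and in monocyte-like cells, at a ratio of 18.1. Ifitm6 stood at 11.6 CPM in WT T cells and had a ratio of 8.60 in T cells against 7.36 in the macrophages, so that the macrophages lay no higher than the background. Spp1 and Thbs1 stood at 8.14 and 15.4 CPM in Mgl2DTR T cells, below the macrophages. With Timd4 or Spic positive cells alone 7 of the list were higher and 3 lower; in the remaining cells 18 were higher and none lower. The count was 10 after thinning to 2000 UMIs and 2 without the macrophages with over 2 UMIs of other types' markers. Those markers do not include the monocyte list, and over all genes 42 rather than 717 were higher in that setting.

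Ccl2, Ccl6 and Cxcl2 were among the chemokines that were higher. Ccl2, the main monocyte attractant, stood at 62.7 CPM in WT against 680 CPM in Mgl2DTR macrophages, a ratio of 10.8 (9.55 to 12.3), and at 5.44 and 21.5 CPM in T cells. Ccl6 stood at 112 and 913 CPM, a ratio of 8.16, but at a ratio of 0.736 among the cells with Timd4 or Spic. Cxcl2, a neutrophil attractant, stood at 72.7 and 598 CPM, a ratio of 8.23. Its T cell levels were 28.1 and 190 CPM, a ratio of 6.78. The monocyte-like cells had a Ccl2 ratio of 11.3.

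Of 17 chemokines measured 7 were higher and 4 lower. The remaining higher ones, chosen after their values were seen, were Ccl7 (63.4 and 352 CPM), Ccl9 (48.2 and 249.3 CPM) and the platelet factor Pf4 (264 and 702 CPM). The lower ones were Cxcl9, the interferon-gamma-induced ligand of the receptor Cxcr3 (232 and 48.5 CPM, ratio 0.209), Cxcl16 (731 and 435 CPM), Ccl5 (166 and 96.3 CPM) and Ccl17 (58.7 and 19.5 CPM). In WT macrophages Ccl5 and Ccl17 lay below their WT T cell levels of 1134 and 110 CPM. Ccl12, at 380 and 521 CPM, was not called.

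**Figure D3:**
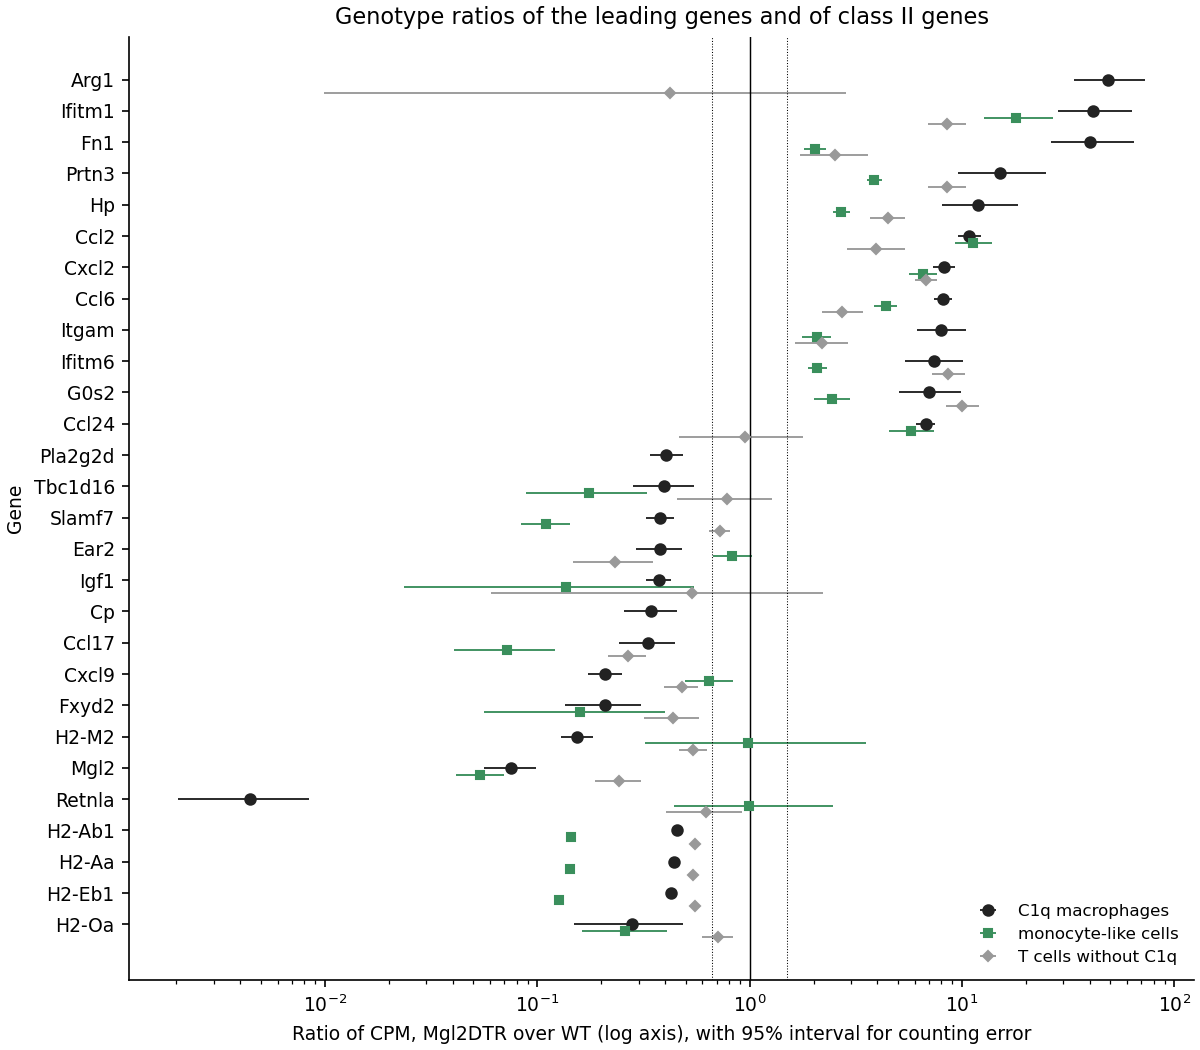
Ratio of CPM, Mgl2DTR over WT, on a log axis with exact 95% intervals for counting error, for the leading genes and 4 class II genes in C1q macrophages, monocyte-like cells and T cells; ratios from under 10 counts or from a genotype at 0 are left out, and dotted lines mark 1.5-fold. Retnla and Arg1 lie at the ends, at 0.00444 and 48.6, and G0s2 and Ifitm6 have T cell ratios above those of the macrophages.

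Several genes with high ratios lay at the background. Prtn3, a neutrophil granule protease, stood at 4.76 CPM in WT against 71.5 CPM in Mgl2DTR macrophages, and at 8.76 and 74.4 CPM in T cells. Hp, the hemoglobin scavenger haptoglobin, stood at 6.34 and 75.8 CPM against 14.3 and 63.7 CPM, and G0s2, a lipase inhibitor of neutrophils, at 10.2 and 71.2 CPM against 10.9 and 110 CPM. The T cell values were higher in Mgl2DTR as well, and nothing further is read from these genes.

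The neutrophil list as a whole behaved alike. Of its 15 measured genes 14 were higher, and its summed level was 1912 CPM in WT against 11538 CPM in Mgl2DTR macrophages against 3878 and 11246 CPM in T cells; none of its 18 genes was at 0. The median macrophage held 3.5 and 4 UMIs of the list, and the 10 richest cells held 80.0% and 88.9% of all its UMIs. Without cells over 0.2% of UMIs from other types' markers, 2 of the list were higher. Most of the neutrophil list is itself among those markers, so a lower count was built into that filter and nothing is read from it. The wound repair count was then 14 and the class II count of lower genes 11, and the part of neutrophil RNA in the remaining results was not tested.

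Of the 13 monocyte markers measured, 7 were higher and 1 lower, and the median log2 ratio was 1.15, and their summed level was 1449 and 2295 CPM against 1001 and 1396 CPM in T cells; none was at 0. That median was -0.02 when cells were thinned to 2000 UMIs. Plac8 stood at 204 and 761 CPM and the matrix protein Vcan at 0.679 and 60.2 CPM, from 3 counts in WT, a ratio of 88.6 (29.8 to 434). Without the macrophages holding 3 or more Ly6c2 UMIs, 13 of the wound repair genes were higher and 11 of the class II genes lower. The part of monocyte RNA in these results was not tested.

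Markers of type 2 dendritic cells moved the other way. Of 10 measured, 7 were lower, and the median log2 ratio was -0.99, at a summed level of 811 CPM in WT against 467 CPM in Mgl2DTR against 910 and 880 CPM in T cells; none was at 0. Cd209a, their C-type lectin, stood at 13.1 and 1.42 CPM, and the adhesion molecule Epcam at 38.5 and 6.37 CPM. Lists of other cells held lower genes too: 4 of 10 for activated dendritic cells (1951 and 1202 CPM), 4 of 8 for plasmacytoid dendritic cells (2105 and 1371 CPM, Pacsin1 at 0 in Mgl2DTR) and 2 of 7 for type 1 dendritic cells (625 and 492 CPM). For lymphocytes these were 1 of 4 T cell markers (185 and 107 CPM; Themis, Rag2 and Ptcra at 0 in Mgl2DTR), 1 of 4 B cell markers (233 and 175 CPM; Pax5 and Fcmr at 0 in Mgl2DTR) and both NK markers measured (61.4 and 33.6 CPM). Their part in the genotype result was not tested.

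Of 15 complement genes measured 8 were lower and 3 higher, but 3 of the 8 were the C1q genes, which chose the cells and from which nothing is read. The remaining lower ones included C4b (18.8 and 2.83 CPM, ratio 0.151 from 83 and 8 counts), C2 (16.8 and 10.3 CPM), the central component C3 (447 and 279 CPM) and Cfb of the alternative pathway (400 and 232 CPM). T cells held at most 19.2 CPM of any of these. The higher ones were receptors: C5ar1, for the fragment C5a (12.9 and 52.4 CPM, ratio 4.06), Itgam, the CD11b chain of complement receptor 3 (15.6 and 124 CPM, ratio 7.95), and Cd93 (6.57 and 26.9 CPM, ratio 4.10). These receptors were higher in Mgl2DTR T cells as well. T cells held 1.72 and 7.85 CPM of C5ar1 (ratio 4.57), 9.68 and 21.2 CPM of Itgam (2.19) and 0.917 and 3.20 CPM of Cd93 (3.49). Properdin, Cfp, was not called, at 351 and 444 CPM. The lower count, C1q genes included, was 3 when ratios were taken within the C1q ranges or with each cell weighted equally, and 0 without the macrophages with over 2 UMIs of other types' markers.

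Genes known from Cx3cr1-expressing macrophages were lower or not called: 8 of 16 were lower, none higher, and the median log2 ratio was -0.63. Mmp2, a matrix metalloprotease, stood at 98.97 and 42.5 CPM, Pmepa1, a brake on TGF-beta signalling, at 170 and 86.4 CPM, and the lysophospholipid receptor Gpr34 at 58.7 and 31.2 CPM. Cx3cr1 itself was not called, at 301 and 257 CPM. Siglech, lower at a ratio of 0.501, was limited to 1 UMI by the rule.

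Among the genes with the smallest ratios were 3 that the monocyte-like cells held at low levels. The non-classical MHC gene H2-M2 stood at 335 CPM in WT against 51.7 CPM in Mgl2DTR, a ratio of 0.154 (0.129 to 0.183), while monocyte-like cells held 2.81 and 2.75 CPM and T cells 103 and 56.1 CPM. Igf1, a growth factor of resident macrophages, stood at 239 and 89.2 CPM, a ratio of 0.373. Pla2g2d, a secreted phospholipase, stood at 137 and 55.6 CPM, a ratio of 0.406. Igf1 and Pla2g2d reached at most 5.05 CPM in monocyte-like and T cells. Without the macrophages with over 2 UMIs of other types' markers the Pla2g2d ratio was 1.57, on the other side of 1.

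The rest of that group was led by the sodium pump regulator Fxyd2 (47.8 and 9.92 CPM, ratio 0.207), the copper-carrying ferroxidase Cp (62.7 and 21.6 CPM, ratio 0.344), the adhesion receptor Slamf7 (197 and 74.7 CPM, ratio 0.379) and the Rab regulator Tbc1d16 (43.0 and 17 CPM, ratio 0.395). In monocyte-like cells Slamf7 stood at 152 CPM in WT against 16.7 CPM in Mgl2DTR. Fxyd2 stood at 33.5 and 14.5 CPM in T cells.

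Of 16 identity genes, 2 were higher (Maf, 139 and 221 CPM, and Cd14, 62.0 and 144 CPM) and 3 lower (Apoe, Ms4a7 and the iron carrier transferrin, Trf). Of 33 lysosome genes none was higher and 5 were lower, the melanosome glycoprotein Gpnmb (61.8 and 34.4 CPM) and the tetraspanin Cd63 (1494 and 898 CPM) among them. Of 24 lipid genes 3 were higher, including the lipoprotein lipase Lpl (124 and 203 CPM), and 2 lower. Over all genes tested 8.58% were higher and 5.0% lower, and the lipid and identity counts are not read as a direction. The Lpl ratio was 0.986 among cells with Timd4 or Spic and 0.947 without the macrophages with over 2 UMIs of other types' markers. Of 15 resident surface genes 1 was higher (Cd5l, 2.49 and 13.8 CPM) and 5 lower, including the folate receptor Folr2 (54.6 and 26.2 CPM) and the lectin Cd209f (21.3 and 0.354 CPM, from 94 counts and 1).

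Iron and heme genes went both ways, with 5 higher and 6 lower of 19. Hmox1, which degrades heme, stood at 51.6 CPM in WT against 108 CPM in Mgl2DTR, a ratio of 2.09, and the endosomal iron transporter Slc11a1 at 21.7 and 50.3 CPM. The iron exporter Slc40a1 was not called, at 63.9 and 53.5 CPM. The lower ones include Hpgd, a prostaglandin-degrading enzyme abundant in splenic macrophages and not itself a gene of iron or heme. Hpgd stood at 117 and 51.7 CPM, and the hemoglobin receptor Cd163 at 41.2 and 25.5 CPM. The Hpgd ratio turned to 1.20, that of Maf to 0.375 and that of Irf7 to 1.11 without the macrophages with over 2 UMIs of other types' markers. That of Folr2 was 2.57 at a hashtag margin of at least the median.

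Receptors for dying cells were mostly not called. Of 20 measured genes 5 were higher and 1, Timd4, lower, and the median log2 ratio was 0.03. The higher ones included Cd36 (12.9 and 28.3 CPM) and Jmjd6 (12.2 and 27.6 CPM). The Cd36 ratio turned to 0.600 in cells with 50 or more C1q UMIs.

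Inflammatory and interferon genes were called in both directions, but the smaller count on each list was low. Over all genes tested 8.58% were higher and 5.0% lower, so 1 or 2 called genes on lists of this size are not read as a direction. Of 23 genes of NF-kB and inflammation 5 were higher, including the interleukin Il1b (356 and 702 CPM), the inflammasome sensor Nlrp3 (19.9 and 49.9 CPM) and the prostaglandin synthase Ptgs2 (20.6 and 61.3 CPM), and 1 was lower, Il12b, which lay below its T cell level. Of 30 interferon response genes 2 were higher, Ifitm1 and Ifitm2 (160 and 442 CPM), and 4 lower, including the transcription factor Irf7 (459 and 282 CPM) and Ifit3 (101 and 62.0 CPM). The Ifitm2 ratio was 0.940 without the macrophages with over 2 UMIs of other types' markers. Of 25 cell cycle genes 7 were higher and none lower, with the replication genes Mcm5 (25.4 and 55.6 CPM) and Rrm2 (16.99 and 36.1 CPM) leading. T cells held 44.7 and 54.4 CPM of Mcm5 and 45.6 and 38.4 CPM of Rrm2. Of 4 sex-linked genes measured 2, both on the Y chromosome, were higher in Mgl2DTR macrophages: Ddx3y (42.6 and 64.4 CPM) and Eif2s3y (14.9 and 34.4 CPM). Xist, which female cells express, was counted 4 times in WT and 0 times in Mgl2DTR macrophages, too few for a ratio. Ddx3y was found in 138 WT and 117 Mgl2DTR macrophages. The labels used here do not give the sex of the mice, and its part in the results was not tested.

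**Figure D4:**
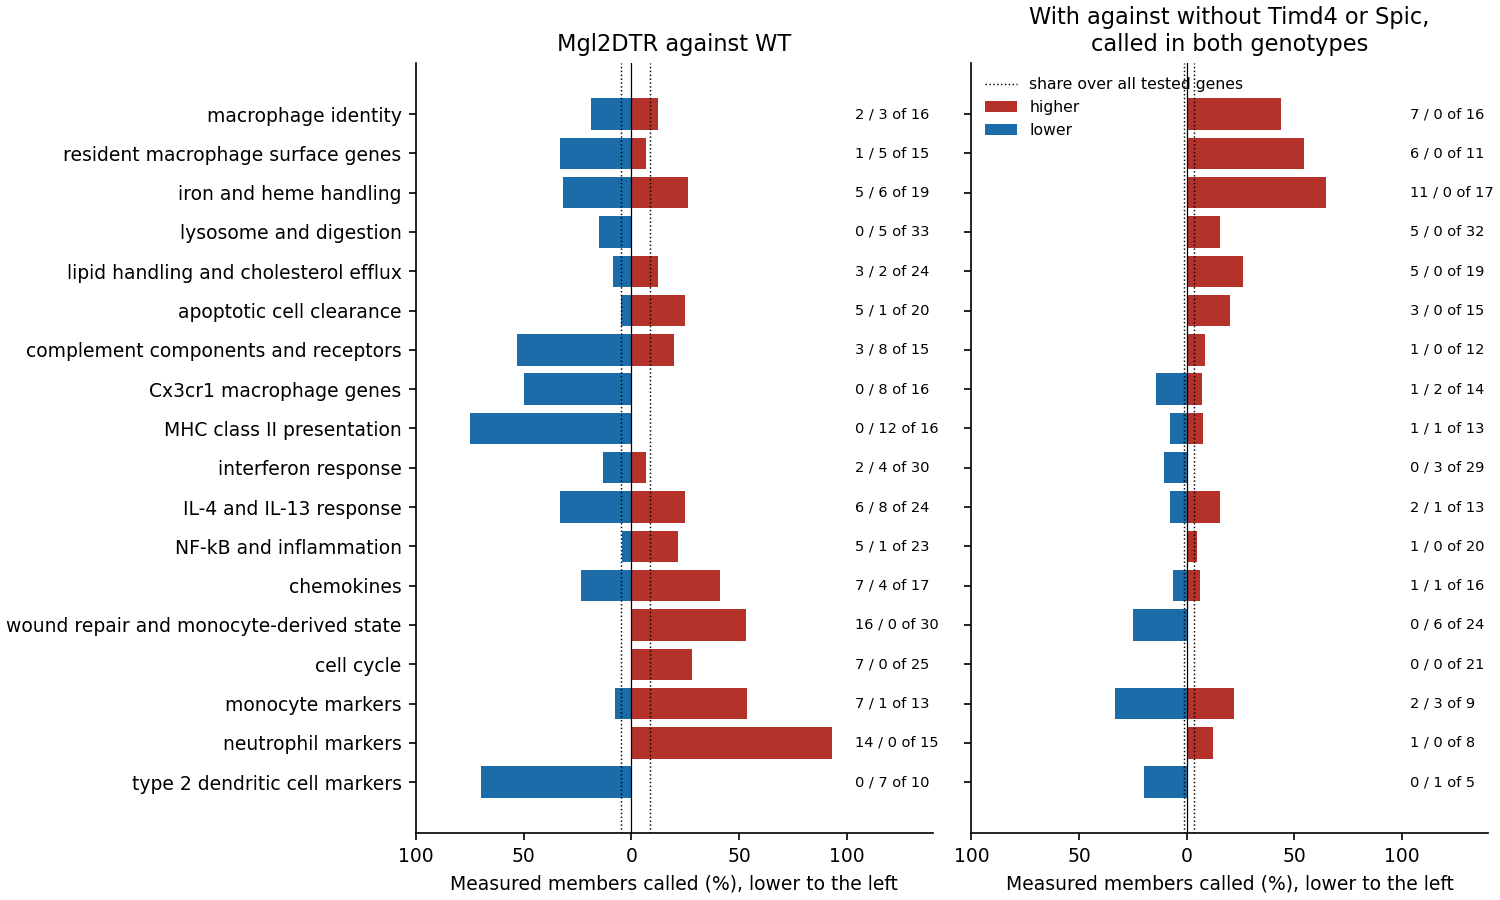
Share of the measured genes of each list (percent) that were higher (right) or lower (left) in Mgl2DTR macrophages, and, in the second panel, in macrophages with Timd4 or Spic in both genotypes, with the counts beside each bar and dotted lines for the share over all genes tested. MHC class II has 12 lower and no higher genes by genotype, wound repair 16 higher and no lower, and iron and heme handling 11 higher and no lower with Timd4 or Spic. The prostaglandin gene Hpgd counts among those 11.

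The second comparison set macrophages with a Timd4 or Spic UMI beside those with none, in each genotype on its own. In both, positive cells held more mRNA of iron and heme handling, of Vcam1 and other resident macrophage surface genes and of Apoc1 and Nr1h3. They held less of Ly6c2, Ccr2, S100a4, S100a6 and S100a11. Of 5699 genes with at least 50 counts in each genotype, 190 (3.33%) were higher in both and 57 (1.00%) were lower in both. In WT alone 658 were higher and 241 lower of 6895, and in Mgl2DTR alone 490 and 300 of 5813. The positive cells were shallower, with a median of 7963 against 9763 UMIs in WT and 7190 against 8539 in Mgl2DTR. Their median C1q was 117 against 98 UMIs and 60 against 44.

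Slc40a1, ferroportin, the only known exporter of iron from cells, had a large ratio in both genotypes. In WT it stood at 189 CPM with Timd4 or Spic and 15.4 CPM without, a ratio of 12.3 (8.98 to 17.1). In Mgl2DTR it stood at 159 and 18.4 CPM, a ratio of 8.62 (5.94 to 12.8). Its UMIs were found in 64 WT cells, 42 of them positive (65.6%, 52.7% to 77.0%), and in 53 Mgl2DTR cells, 33 of them positive (62.3%, 47.9% to 75.2%). T cells held 0.802 and 1.45 CPM. The gene lies on chromosome 1, at 45908068 to 45926523 on the minus strand.

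Of 17 iron and heme genes measured in both genotypes, 11 were higher in both and none lower, with median log2 ratios of 1.12 in WT and 1.05 in Mgl2DTR. The medians over all genes were 0.04 and 0.00. The 11 include Hpgd, which degrades prostaglandins and is not itself a gene of iron or heme. Hpgd had ratios of 5.88 and 5.95, from 290 against 49.3 CPM in WT and 138 against 23.1 CPM in Mgl2DTR. Transferrin, Trf, had ratios of 3.38 and 3.62, Slc11a1 of 3.77 and 2.54, and the hemopexin receptor Lrp1 of 3.26 and 2.28. Further members, chosen after their values were seen, were the heme transporter Slc48a1 (2.02 and 2.93), the biliverdin reductase Blvrb (2.18 and 2.13) and the transferrin receptor Tfrc (2.44 and 2.07).

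The genotypes were apart on both classical heme genes. Hmox1 had a ratio of 2.77 in WT (95.7 against 34.6 CPM) and 1.12 in Mgl2DTR (118 against 105 CPM). Cd163 had a ratio of 8.34 in WT (113 against 13.5 CPM) and 1.60 in Mgl2DTR, with an interval of 0.942 to 2.65. Neither difference between the genotypes was tested. Fth1, the ferritin heavy chain, showed no such ratio, at 1.02 and 0.883. The count of 11 was 5 among cells with a hashtag margin at or above its median and 4 when cells were thinned to 2000 UMIs.

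Of 11 resident surface genes, 6 were higher in both and none lower. Vcam1, an adhesion molecule of resident macrophages, stood at 1240 against 381 CPM in WT, a ratio of 3.25 (3.01 to 3.51), and at 1049 against 267 CPM in Mgl2DTR, a ratio of 3.93 (3.52 to 4.40). The tetraspanins Cd81 (ratios 2.99 and 3.94) and Tspan4 (3.11 and 3.22) and Il18bp, the decoy for interleukin-18 (2.61 and 2.09), were higher as well. Il18 itself had ratios of 3.87 and 5.15.

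Of 16 macrophage identity genes, 7 were higher in both and none lower. Apoe stood at 15541 against 8516 CPM in WT, a ratio of 1.82, and at 10399 against 4709 CPM in Mgl2DTR, a ratio of 2.21. Mertk had ratios of 2.64 and 2.11, Ms4a7 of 1.67 and 1.85, and the transcription factor Maf of 3.92 and 1.68. Axl was not called, at 1.21 and 1.28. Without the macrophages with over 2 UMIs of other types' markers the Apoe ratio in Mgl2DTR was 0.750 and the median log2 ratio of the list there -0.20, both on the other side of no difference. Of the 15 genes of dying-cell clearance 3 were higher in both: Mertk, Lrp1 and Vcam1.

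Of 19 lipid genes 5 were higher in both and none lower. Apoc1, a small apolipoprotein, stood at 407 against 66.0 CPM in WT (ratio 6.17) and 403 against 91.1 CPM in Mgl2DTR (ratio 4.42). The cholesterol-sensing receptor Nr1h3, or LXR alpha, had ratios of 1.90 and 3.38, and the fatty acid carrier Fabp5 of 2.37 and 2.05. Of 32 lysosome genes 5 were higher, among them the proteases Ctsb (1.93 and 1.53) and Ctsd (1.76 and 1.54), the scavenger Cd68 (1.62 and 1.96) and Gpnmb (1.71 and 2.49). The Gpnmb ratio in WT was 0.336 with Timd4 alone, and 1 positive Mgl2DTR cell held 61.4% of the Gpnmb UMIs of those cells. Without the macrophages with over 2 UMIs of other types' markers the median log2 ratios in Mgl2DTR were -0.06 for the lipid and -0.10 for the lysosome genes.

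The largest ratios among abundant genes included some that few cells made. Gdf15, a stress cytokine, had ratios of 4.72 and 125, but 1 cell held 73.3% of its UMIs among the positive Mgl2DTR cells. The chemokine Ccl8 had ratios of 3.25 and 5.38, with 68.1% from 1 Mgl2DTR cell. The neutrophil peptide Camp had ratios of 15.4 and 1.57, with 97.4% and 97.1% from 1 cell each. Neither Camp nor the neutrophil list (1 of 8 higher) is described further for these cells: the list summed to 5017 against 709 CPM in WT and 14275 against 10627 CPM in Mgl2DTR.

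Further genes completed that group, and their spread over cells differed. Serpinb6a, a protease inhibitor, had ratios of 6.41 and 2.55, the mitochondrial protein Tmem65 of 5.57 and 3.40, and Sipa1l1 of 3.19 and 11.3. The NAD-consuming enzyme Cd38 had ratios of 4.23 and 3.60, and Pla2g2d of 3.40 and 5.42. Serpinb6a was found in 73 of the 133 positive WT cells and Cd38 in 61. Sipa1l1 was found in 27 of the positive WT cells and in 20 of the 71 positive Mgl2DTR cells. There 1 cell held 33.0% of its UMIs. Pla2g2d was found in 44 positive WT and 22 positive Mgl2DTR cells.

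Ly6c2 and Ccr2 were lower in the positive cells. Ly6c2 stood at 97.3 against 525 CPM in WT, a ratio of 0.185 (0.153 to 0.223), and at 176 against 436 CPM in Mgl2DTR, a ratio of 0.403 (0.331 to 0.487). Ccr2, the receptor for Ccl2, had ratios of 0.506 and 0.304, and S100a4, a calcium-binding protein, of 0.538 and 0.188. Of 24 wound repair and monocyte-derived genes 6 were lower in both and none higher: Ly6c2, Ccr2, S100a4, S100a6, S100a11 and Plac8. Without the macrophages with over 2 UMIs of other types' markers the median log2 ratio of that list in Mgl2DTR was 0.01 in place of -0.67. Of 9 monocyte markers 3 were lower and 2 higher in both genotypes. In WT alone 4 were higher and 3 lower, at a median log2 ratio of 0.01. Their summed levels were 1073 against 1595 CPM in WT and 1342 against 2612 CPM in Mgl2DTR. T cells held 1001 and 1396 CPM of these markers, so the positive cells lay near the background.

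Lower too were the aspartic protease Napsa (0.420 and 0.284), the cytokine Osm (0.228 and 0.642), the B cell survival factor Tnfsf13b (0.660 and 0.243), the receptor Kdr (0.372 and 0.364), Kctd14 (0.431 and 0.207), Gpr141 (0.414 and 0.404) and the coagulation factor F10 (0.502 and 0.104). Ccl17 stood at 2.43 against 80.5 CPM in WT and 4.25 against 24.5 CPM in Mgl2DTR, where T cells held 110 and 29.4 CPM. Of 29 interferon genes 3 were lower, Ifit1 (0.352 and 0.394), Usp18 (0.471 and 0.437) and Oasl1 (0.610 and 0.505), and none was higher.

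Of 13 class II genes measured in both genotypes 1 was higher in both, Cd86 (1.88 and 2.18), and 1 lower in both, H2-DMb2 (0.583 and 0.356). Taken singly, 2 of the 13 were lower in WT and 7 in Mgl2DTR, and the median log2 ratios were -0.39 and -0.60. H2-Aa stood at 8325 against 10917 CPM in WT, a ratio of 0.762, and at 2873 against 5007 CPM in Mgl2DTR, a ratio of 0.574. Complement had 1 higher gene of 12 (Cfp, 2.05 and 1.58), the Cx3cr1 macrophage genes 1 higher (P2ry12) and 2 lower (Runx3 and Cd9) of 14, NF-kB and inflammation 1 higher of 20 (Il1a), chemokines 1 of 16 in each direction, and the interleukin-4 response 2 higher (Ear2 and Tgm2) and 1 lower of 13. Over all genes tested 3.33% were higher and 1.00% lower in both genotypes, and these small counts are not read as a direction.

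Transcripts of T cells stood higher in the positive cells: their marker list summed to 294 against 143 CPM in WT and 181 against 82.1 CPM in Mgl2DTR, beside 7304 and 6966 CPM in T cells. The 1 marker measured in both, Cd4, which macrophages can also express, was higher (2.94 and 4.45). The B cell list summed to 272 against 218 and 274 against 143 CPM, with Ms4a1 and Pax5 among the markers at 0 in the positive cells of both genotypes. Type 2 dendritic cell markers summed to 991 against 742 and 527 against 447 CPM, and plasmacytoid markers to 2059 against 2123 and 1270 against 1405 CPM. Their part in the comparison was not tested.

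**Figure D5:**
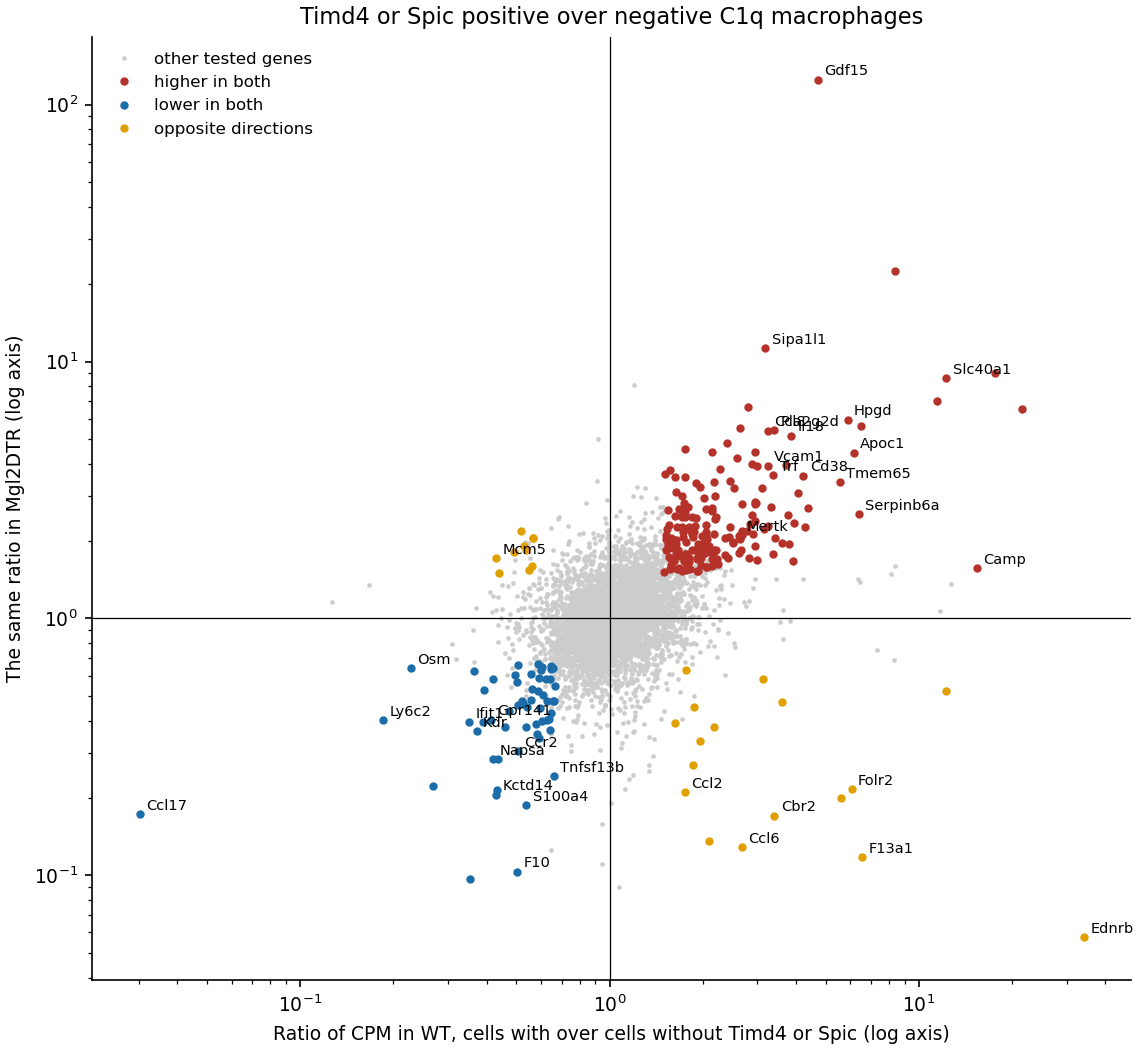
Ratio of CPM in macrophages with Timd4 or Spic over those without, in WT (horizontal) and in Mgl2DTR (vertical), both on log axes, 1 point per gene measured in both genotypes. Slc40a1 (12.3 and 8.62), Hpgd and Vcam1 lie at the upper right, Ly6c2 and S100a4 at the lower left, and Folr2, F13a1 and Ccl6 at the lower right.

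Some resident macrophage genes were higher with Timd4 or Spic in WT and lower with them in Mgl2DTR. Of the 5699 genes, 18 were higher in the positive cells of WT and lower in those of Mgl2DTR, and 10 the reverse. Folr2 stood at 137 against 22.6 CPM in WT and 7.09 against 32.6 CPM in Mgl2DTR. F13a1, the coagulation factor XIII chain of resident and monocytic cells, stood at 163 against 24.8 CPM and 11.3 against 96.3 CPM. Ccl6 stood at 204 against 76.0 CPM and 150 against 1167 CPM.

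Cells with Folr2 or F13a1 were counted for Timd4 or Spic and for Fn1. The Fn1 counts are to be set beside all macrophages, where 0.679% in WT and 16.3% in Mgl2DTR carried an Fn1 UMI. At so low a WT share, the WT counts cannot tell whether cells with Folr2 or F13a1 lacked Fn1. Of the 41 WT cells with Folr2, 23 (56.1%, 39.8% to 71.5%) were positive and 0 held Fn1. Of the 28 Mgl2DTR cells with it, 4 (14.3%, 4.03% to 32.7%) were positive and 11 held Fn1. Of the 36 WT cells with F13a1, 19 were positive and 1 held Fn1, and of the 36 Mgl2DTR cells 4 were positive and 23 held Fn1. The difference between the genotypes was not tested.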

How the data were processed

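Per the labels, 1 single-cell 3′ library pool held both genotypes, each marked by a hashtag oligonucleotide. Per the submitters' processing notes, Cell Ranger 6.0.0 and Seurat 4.0.4 were used with build mm10. The deposited tables hold raw UMI counts per gene and cell (28926 cells, 20451 genes, no barcode in both tables). The deposited hashtag margin is a score per cell, as the authors' Seurat table gives it, and each cell's genotype was read from that table's assignment. No doublet caller was run here; cells with a pair of hashtags were left out, and the exclusion genes act against mixed cells.

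Members and gene lists were chosen with earlier results of these data known. UMIs were summed over cells with Python 3.11.15, numpy 2.4.6, scipy 1.17.1 and pandas 2.3.3, and drawn with matplotlib 3.10.9. Intervals are exact at 95% (Poisson, Clopper-Pearson, and conditional binomial for ratios) and cover counting error only. With 1 sample per genotype no test or p-value was possible. Genes with at least 50 counts were called at a ratio of 1.5 where the interval left out 1. Between cells with and without Timd4 or Spic the rule had to hold in both genotypes. A group at 0 was set to 3 counts.

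Named genes were the 12 largest and 12 smallest ratios among called genes with at least 200 counts, up to 4 genes of each list described, Mgl2 and the rule's markers; further genes named were chosen after their values were seen. The calling code was run on simulated Poisson totals per gene and genotype, with no spread between cells. Such data cannot show how the rule acts where few cells hold most UMIs of a gene. Alternatives changed the C1q minimum, the cells kept, the scaling, the count minimum, the ratio and the Timd4 or Spic rule; 4 kinds were added after seeing the data (C1q of at least 50, no cells with 3 Ly6c2 UMIs, no cells over 0.2% UMIs of other types, and ratios within C1q ranges). Gene positions are from GENCODE on GRCm38, promoters from RefSeq on GRCm38.p6. A few genes of the lists are not reported here by name.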

Additional observations from a re-analysis of the deposited data

Results flagged for a closer look

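In 18 genes with at least 200 counts the difference between macrophages with and without Timd4 or Spic ran in opposite directions in the genotypes. The difference between the genotypes was not tested, and the genes were chosen after their values were seen. Ratios of cells with over cells without are given for WT and then Mgl2DTR.

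Genes of resident macrophages and of uptake were among them. Folr2 had ratios of 6.055 and 0.2176, F13a1 of 6.563 and 0.1178, the carbonyl reductase Cbr2 of 3.412 and 0.1709, and the endocytic adaptor Dab2 of 3.616 and 0.4713. The endothelin receptor Ednrb had ratios of 34.18 and 0.05739. These 5 genes were higher with Timd4 or Spic in WT and lower in Mgl2DTR. Several of the ratios rest on few counts. Ednrb had 4 counts in WT cells without Timd4 or Spic. In Mgl2DTR cells with them Ednrb had 3 counts, Folr2 5, Cbr2 7 and F13a1 8.

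The chemokines Ccl2 (1.751 and 0.2108), Ccl6 (2.686 and 0.1288) and Ccl7 (2.172 and 0.3771) ran the same way. So did Itgam (1.87 and 0.453), Ifitm6 (3.14 and 0.5827), Eps8 (1.857 and 0.2686) and Metrnl (1.769 and 0.6297). The granule protein Ltf had ratios of 12.21 and 0.5215, but 1 cell held 93.66% of its UMIs among positive WT cells and 97.59% among positive Mgl2DTR cells.

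Genes of the cell cycle ran the other way. Mcm5 had ratios of 0.4299 and 1.712, Mcm7 of 0.4399 and 1.502, the centromere protein Cenpa of 0.5596 and 1.598, and the histone gene Hist1h3c of 0.5159 and 2.199. The NF-kB inhibitor Nfkbie had ratios of 0.5492 and 1.541. Over the 21 cell cycle genes measured in both genotypes the median log2 ratio was -0.62 in WT and 0.32 in Mgl2DTR. With Timd4 alone the Mgl2DTR median was -0.455, in the same direction as in WT.

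Cells with a pair of hashtags, which entered no comparison, also met the count rule: 221 of 9829, a share of 2.248% with an exact binomial interval of 1.964% to 2.561%. Their genotype is not given by the hashtags.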

How the results depend on the processing

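No paired analysis was possible because each genotype is 1 sample and the labels number no replicates. Of the main counts and shares, 83 values under alternatives stayed within their limits and 39 moved; the cause was not tested unless fewer cells or genes entered. The share of cells that were C1q macrophages was 3.39% in WT and 3.01% in Mgl2DTR at 20 or more C1q UMIs, 4.19% and 4.63% at 5 or more, and 2.66% and 1.84% at 50 or more. It was 3.02% and 2.88% without cells holding 3 Ly6c2 UMIs, 3.27% and 2.97% without cells over 0.2% UMIs of other types, 0.44% and 0.646% with at most 2 such UMIs, 3.43% in WT without the deepest 10%, and 3.36% in Mgl2DTR at a hashtag margin of at least the median. The share with Timd4 or Spic was 24.5% in WT at that margin and 15.5% and 13.3% after thinning.

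Genes higher and lower in Mgl2DTR numbered 300 and 177 at 200 or more counts, 241 and 128 at a ratio of 2, 280 and 147 after thinning, and 42 and 45 with at most 2 UMIs of other types. There were 463 higher among cells with Timd4 or Spic and 214 lower at the margin. Genes higher and lower with Timd4 or Spic numbered 56 and 25 at 200 counts, 70 and 14 at a ratio of 2, 55 and 20 after thinning, and 5 and 7 with at most 2 UMIs of other types; 55 were higher at the margin. Lower counts were 103 with Timd4 alone, 116 with 2 or more UMIs against 0, and 98 with each cell scaled equally.

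Directions turned in 39 values of single genes and lists. With at most 2 UMIs of other types, genotype ratios were 1.57 for Pla2g2d, 0.375 for Maf, 1.20 for Hpgd, 0.947 for Lpl, 0.940 for Ifitm2 and 1.11 for Irf7, and the iron median was 0.0833. The Mgl2DTR ratios with over without Timd4 or Spic were then 0.750 for Apoe, 1.42 for Runx3 and 1.04 for S100a6. The medians were 0.00841 for wound repair, -0.101 for lysosome, -0.0575 for lipid and -0.198 for macrophage identity genes. At the hashtag margin the genotype ratio of Folr2 was 2.57, the iron median 0.145, Camp in WT 0.117 and the neutrophil median in WT -0.858. Among cells with Timd4 or Spic alone the genotype ratio was 0.736 for Ccl6 and 0.986 for Lpl, and among cells without them 1.44 for Folr2. After thinning the monocyte marker median was -0.0245. At 50 or more C1q UMIs Cd36 had a ratio of 0.600 and Camp in WT 0.540. With Timd4 alone the ratios were 0.171 for Camp in WT and 0.0 in Mgl2DTR, 0.336 for Gpnmb in WT and 1.0 for Tnip3 in WT. The neutrophil medians were then -0.674 in WT and -1.06 in Mgl2DTR, and the cell cycle median in Mgl2DTR -0.455. Camp was 0.625 in WT with 2 or more UMIs against 0. In Mgl2DTR Camp was 0.775 at 5 or more C1q UMIs and 0.276 without the deepest 10%. The neutrophil median in Mgl2DTR was -0.316 and -0.934 in those settings, -0.166 at 20 or more counts, -0.123 with Spic alone and -0.178 without cells holding 3 Ly6c2 UMIs.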

Other observations

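Further gene groups were counted in the same way, beside shares over all genes tested of 8.58% higher and 5.0% lower in Mgl2DTR. Of 16 MHC class I presentation genes 5 were lower in Mgl2DTR macrophages and none higher, with a median log2 ratio of -0.38: H2-K1 stood at 2354 CPM in WT against 1437 CPM in Mgl2DTR, and H2-D1 at 2375 and 1500 CPM. Of 25 transcription factors 4 were higher and 5 lower. Cebpb, a factor of inflammatory myeloid cells, stood at 101 and 302 CPM, a ratio of 2.98, while its relative Cebpa stood at 127 and 84.6 CPM and Runx3 at 334 and 206 CPM.

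Of 17 genes of hypoxia and glycolysis 6 were higher and none lower, including the glycolytic enzyme Pgk1 (116 and 196 CPM) and the lipid droplet protein Hilpda (9.51 and 26.6 CPM). Of 18 Fc receptor and phagocytosis genes 4 were higher and none lower, including the antibody receptor Fcgr4 (9.51 and 30.1 CPM) and the scavenger receptor Msr1 (75.9 and 170 CPM). Of 24 immediate early and stress genes 6 were higher and 1 lower, with Dusp1 at 290 and 553 CPM and Nr4a1 at 27.4 and 60.9 CPM. Of 16 growth factor genes 1 was higher (Ccr1) and 1 lower (Igf1), and none of 13 mitochondrially encoded genes was called.

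With Timd4 or Spic, the transcription factors Id2 (1.75 and 4.56), Klf2 (3.01 and 1.69) and Rxra (1.95 and 1.79) were among 5 of 22 that were higher in both genotypes. The B cell scaffold gene Bank1 had ratios of 21.5 and 6.55, from 60.8 against 2.83 CPM in WT and 68.0 against 10.4 CPM in Mgl2DTR, and the lectin Fcna of 17.6 and 9.01. None of 16 MHC class I genes and none of 21 cell cycle genes was called in both.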
